A study of Mus musculus with 8 samples.

Results

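The serotonin receptor genes of mouse sensory neurons are described here from RNA sequencing of 2 populations of dorsal root ganglion (DRG) neurons. The genes were taken by name: Htr1a, Htr1b, Htr1d, Htr1f, Htr2a, Htr3a, Htr3b, Htr5a, Htr5b and Htr7. They are 10 of the 43372 genes in the count table. All mice were of the C57Bl/6 strain. Those of genotype Ssttm2.1(cre)Zjh/J (Sst-IRES-Cre) make Cre recombinase from the locus of the peptide gene Sst, and those of genotype Trpv1tm1(cre)Bbm/J (Trpv1-IRES-Cre) make it from the locus of the heat and capsaicin channel gene Trpv1. Pups of both genotypes were injected intraperitoneally on postnatal day 2 with a virus whose fluorescent protein is made only after Cre has acted: some with AAV9-CAG-FLEX-eGFP-WPRE, which makes green protein, others with the red version, AAV9-CAG-FLEX-tdTomato-WPRE. Fluorescent neurons were picked by hand from dissociated ganglia of mice of both sexes aged 3 to 5 weeks, 150 to 250 per mouse. Each genotype has 4 independent samples, named Sst and Trpv1 libraries below. Every library is a pool of neurons, and the labels do not give the virus used for each library.

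Serotonin is released in the skin of rodents by mast cells and platelets and acts on sensory endings through several receptor families. The Htr1 receptors and Htr5a couple to inhibitory G proteins of the Gi/Go class, which lower cyclic AMP and, through their beta-gamma subunits, open potassium channels and reduce transmitter release. Htr2 receptors couple to Gq and phospholipase C, and Htr7 couples to Gs and raises cyclic AMP. Htr3 receptors are unlike the rest: they are cation channels opened directly by serotonin, in which the Htr3b subunit works only together with Htr3a. Htr1b, Htr1d and Htr1f are the targets of the anti-migraine triptans and related drugs.

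Total gene counts were 9021125 to 12153109 in the Sst libraries and 7419027 to 9568508 in the Trpv1 libraries. Some measures of the libraries were partly aligned with genotype or with single libraries. All 4 Sst libraries held counts of Xist and none of Y-linked genes, whereas Trpv1 replicates 1 and 2 held Y-linked counts and 0 of Xist, and Trpv1 replicates 3 and 4 the reverse. Transcripts of the pituitary hormones Gh and Prl were present in Sst replicate 2 and in Trpv1 replicates 1, 2 and 3, with at most 1 count of each in the other 4 libraries. Gh held 937 counts in Sst replicate 2 and 9044, 5487 and 1332 in Trpv1 replicates 1 to 3. Prl held 3245 counts in Sst replicate 2 and 5122, 6906 and 11494 in those Trpv1 libraries. The pituitary markers Pomc and Fshb did not pass the filter. They held 1501, 468, 7 and 0, and 1014, 87, 0 and 0 counts in the Trpv1 libraries, and at most 5 and 0 in any Sst library. Neuron class markers differed as well. Of 10 markers of myelinated neurons 8 were higher in the Sst libraries and 1, Ret, was lower, with summed levels of 4601 to 7856 against 2567 to 3607 CPM (counts scaled to library size by the trimmed mean of M-values). Of 8 markers of the NP3 class, the itch neurons that contain Nppb and Sst, 3 were higher (Il31ra, Jak1 and Npy2r). At an unadjusted p under 0.05 in edgeR, 7 of the 8 were higher. The 8 markers summed to 4493 to 7431 against 2472 to 2685 CPM, of which Jak1 alone averaged 2933 and 1309 CPM. Of 7 markers of peptidergic nociceptors 6 were lower, all but Trpv1 (summed 102 to 246 against 2055 to 2912 CPM). With Trpv1, all 7 were lower at an unadjusted p under 0.05 in edgeR. Both markers of the NP2 class were lower (summed 8.53 to 20.5 against 183 to 441 CPM). None of the 4 mast cell markers passed the filter: Mcpt4 and Tpsb2 were at 0 in every library, Cma1 held 1 count in all, and Cpa3 held 24, 0, 12 and 11 counts in the Trpv1 libraries and 0, 3, 0 and 9 in the Sst libraries. In edgeR, 0 of 5 Schwann cell and 0 of 4 satellite glia markers passed the test, with 2 and 1 at an unadjusted p under 0.05. DESeq2 and limma voom also called 0 of the glial markers. No marker of fibroblasts (4 tested), endothelial cells (2), red blood cells (2), pituitary cells (3), C-LTMR neurons (1) or NP1 neurons (2) passed in edgeR, DESeq2 or limma voom, and 0 of these were at an unadjusted p under 0.05 in edgeR. Of 4 macrophage markers 0 passed the filter: C1qa was at 0 in every library, and Csf1r, C1qb and Aif1 held at most 46, 25 and 6 counts in any library. The part of these markers in the results below was not tested, and in bulk samples fewer cells of a type and less RNA per cell cannot be told apart.

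Of the 10 receptor genes, 9 passed the filter on low counts and were tested, and 4 of these differed between the populations. Htr1d, Htr1f and Htr1a were higher in the Sst libraries and Htr1b was higher in the Trpv1 libraries, so all 4 called genes belong to the Htr1 family. The test was edgeR's quasi-likelihood F test with Benjamini-Hochberg adjustment over the 11828 genes that passed, at a threshold of 0.05, and fold changes are Sst over Trpv1. Across all genes the test called 6.35%, with 3.04% higher and 3.31% lower in the Sst libraries. Among the receptor genes 44.4% of those tested were called. Their median log2 fold change was −0.72, against 0.01 for all genes. The same 4 genes were the ones whose CPM values did not overlap between the groups, which was the case for 11.1% of all genes (5.43% higher and 5.71% lower in the Sst libraries). The genes were chosen with earlier results of these data known, so their share above the background is a description. In the 6 Xist-positive libraries Htr1d and Htr1b were still called and Htr1f and Htr1a were not. The 4 libraries nearly free of Gh and Prl hold 1 Trpv1 library, replicate 4. There Htr1d was the 1 receptor gene called, and across all genes 52 were, while the log2 fold changes of Htr1f and Htr1a were 0.93 and 1.31.

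Htr1d encodes an inhibitory receptor found on sensory neurons and their terminals. The gene (GRCm38, GENCODE M21) spans chr4:136423524-136444398 on the plus strand, in 2 to 3 exons per transcript, and shares no exonic bases with another gene. Its counts were 780, 493, 564 and 979 in Sst replicates 1 to 4, or 77.7, 53.7, 52.3 and 88.8 CPM. In the Trpv1 libraries 1 count in all was found, in replicate 3, and the other 3 libraries were at 0. The 4 Sst libraries lay close together, with a standard deviation of 18.0 around a mean of 68.1 CPM, and no Trpv1 library came near them. The ratio of the summed counts, scaled by depth, was 2387 (95% exact binomial interval 428 to 94326, which covers counting error only, as the reads carry no molecular identifiers). The edgeR adjusted p was 1.57e-06. The fitted log2 fold change of 10.67 depends on the prior count and measures no size, nor does that of 12.37 without Trpv1 replicate 3, where the Trpv1 group holds 0 counts. Htr1d was called under every one of 19 other settings tried, with an adjusted p between 1.3e-20 and 0.0356.

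Htr1b, its closest relative among these genes, ran the other way. It lies at chr9:81628291-81633828 on the minus strand, in 1 or 2 exons. Counts in the Trpv1 libraries were 133, 139, 90 and 121, or 13.8, 17.8, 11.4 and 12.8 CPM. In the Sst libraries they were 3, 15, 0 and 0, so 15 of the 18 counts of the group lay in Sst replicate 2. The Trpv1 mean was 14 ± 2.73 CPM (SD, n = 4 in each group) and the Sst mean 0.483 ± 0.781 CPM. The log2 fold change was −4.94 (SE 0.996, 95% interval −6.99 to −2.89, edgeR adjusted p = 0.00221), that is 30.7-fold. Without Sst replicate 2 the fitted value was −7.0 (edgeR adjusted p = 0.00679). In the 4 libraries with at most 1 count of Gh and Prl, where Trpv1 is represented by replicate 4 alone, the call was lost (−6.88, edgeR adjusted p = 0.231). Htr1b shares 852 exonic bases with a gene on the opposite strand, D430036J16Rik, which held 58, 30, 42 and 44 counts in the Trpv1 libraries and 19, 0, 0 and 0 in the Sst libraries. The strand setting of the counting is not stated, so reads of this pair cannot be told apart.

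Htr1b and Htr1d thus stood in opposite order: Htr1d held more counts in each of the 4 Sst libraries, and Htr1b in each of the 4 Trpv1 libraries. The 2 coding sequences are 66.8% identical over 1101 aligned bases. The longest identical run between transcripts of the 2 genes, searched on both strands, is 20 bases. How reads matching several genes were treated is not stated.

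Htr1f, a Gi-coupled receptor, was counted in every library and had the highest mean level per length of the 10 genes in both populations. It lies at chr16:64924729-65105854 on the minus strand, in 3 exons. Its values were 107, 189, 142 and 267 CPM in Sst replicates 1 to 4 and 69.2, 45.8, 89.1 and 93.3 CPM in Trpv1 replicates 1 to 4. The lowest Sst library lay above the highest Trpv1 library, and Sst replicate 4 stood above the other 3. The means were 176 ± 69.3 and 74.3 ± 21.7 CPM, a 2.37-fold difference (log2 fold change 1.24, SE 0.299, 95% interval 0.63 to 1.86, edgeR adjusted p = 0.0118).

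Htr1a, also Gi-coupled, is a gene of 1 exon at chr13:105443639-105448122 on the plus strand. It stood at 114, 127, 143 and 206 CPM in the Sst libraries and at 79.1, 85.0, 65.0 and 64.2 CPM in the Trpv1 libraries. Again Sst replicate 4 was highest and the groups did not overlap. The means were 148 ± 40.9 and 73.3 ± 10.4 CPM (log2 fold change 1.01, SE 0.267, 95% interval 0.46 to 1.56, edgeR adjusted p = 0.0227). The calls of Htr1f and Htr1a, unlike that of Htr1d, moved with the libraries entered. Without Sst replicate 4 both were lost (Htr1f 0.97, edgeR adjusted p = 0.0567, and Htr1a 0.81, adjusted p = 0.0836), and Htr1a was also lost without Trpv1 replicate 3 (0.96, adjusted p = 0.0651) or 4 (0.97, adjusted p = 0.0561). In the 6 Xist-positive libraries Htr1f stood at 0.98 (edgeR adjusted p = 0.2) and Htr1a at 1.22 (adjusted p = 0.0867). With limma voom and sample weights neither passed (Htr1f 0.95, adjusted p = 0.0856, and Htr1a 0.83, adjusted p = 0.0666), nor with a term for Xist in edgeR (0.95, adjusted p = 0.169, and 1.19, adjusted p = 0.0581). Both kept their sign under all 19 settings, with an adjusted p from 0.0018 to 0.578 for Htr1f and from 0.00499 to 0.372 for Htr1a.

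**Figure D1:**
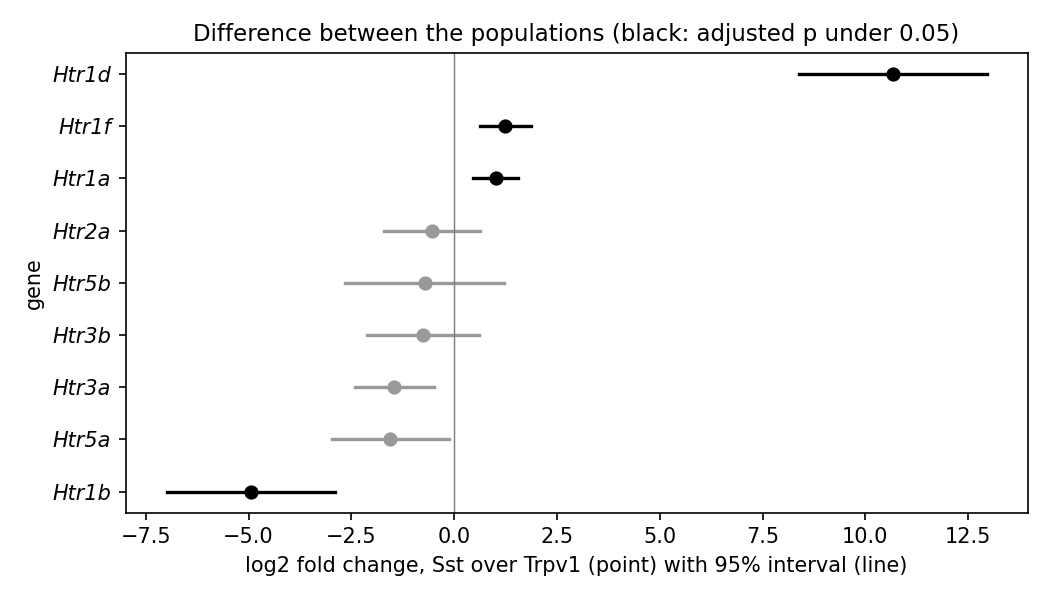
Log2 fold change, Sst over Trpv1, of the 9 tested genes (points) with 95% intervals (lines); black marks an adjusted p under 0.05. Htr1d, Htr1f and Htr1a lie to the right of 0 and Htr1b to the left, while the intervals of Htr2a, Htr3b and Htr5b include 0. The intervals are not adjusted for the number of genes tested. Those of Htr3a (−2.42 to −0.50) and Htr5a (−2.98 to −0.13) exclude 0, though neither gene was called. The point and interval of Htr1d depend on the prior count and measure no size.

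The upstream sequences of the 4 called genes are shown because their transcript levels differed between the populations. They come from RefSeq on GRCm38.p6, read 5′ to 3′ on the gene's strand, and hold only bases before the transcript starts of both RefSeq and GENCODE M21. The locations are chr4:136423274-136423523 (plus strand) for Htr1d, chr9:81633833-81634082 (minus) for Htr1b, chr16:65105855-65106034 (minus) for Htr1f and chr13:105443443-105443638 (plus) for Htr1a. Capitals mark matches to 5 short promoter motifs, searched on both strands; no matches overlap. The first motif is the box with letters CCAAT, bound by NF-Y. The next is the Sp1 box, spelled GGGCGG here and called the GC box. Then follows the TATA box, searched for as TATAAA in every window. The core site of Runx proteins was searched for as TGTGGT, and that of homeobox proteins was searched for as TAATTA.
Htr1d: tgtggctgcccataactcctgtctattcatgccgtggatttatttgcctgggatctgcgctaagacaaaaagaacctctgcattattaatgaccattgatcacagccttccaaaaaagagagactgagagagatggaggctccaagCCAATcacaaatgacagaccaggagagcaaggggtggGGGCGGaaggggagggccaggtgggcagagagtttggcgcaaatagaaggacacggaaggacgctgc
Htr1b: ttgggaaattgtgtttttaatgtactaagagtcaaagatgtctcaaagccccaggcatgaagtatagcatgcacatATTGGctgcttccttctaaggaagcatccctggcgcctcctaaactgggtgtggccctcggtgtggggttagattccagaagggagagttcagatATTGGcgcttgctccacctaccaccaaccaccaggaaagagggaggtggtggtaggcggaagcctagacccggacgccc
Htr1f: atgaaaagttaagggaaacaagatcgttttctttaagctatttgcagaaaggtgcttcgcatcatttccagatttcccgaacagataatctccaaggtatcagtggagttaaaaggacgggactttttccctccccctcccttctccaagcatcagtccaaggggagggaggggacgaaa
Htr1a: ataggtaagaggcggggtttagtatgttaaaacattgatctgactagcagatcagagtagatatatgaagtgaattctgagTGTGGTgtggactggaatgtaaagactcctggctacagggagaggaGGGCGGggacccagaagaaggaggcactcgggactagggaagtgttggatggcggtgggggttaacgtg
Htr1d holds 1 CCAAT box and 1 GC box, which 33.8% and 32.7% of all 32851 promoters hold in 250 bases. Htr1b holds 2 CCAAT boxes, both read on the opposite strand. In 196 bases Htr1a holds a GC box (23.9% of promoters) and a Runx core (11.4%). Htr1f holds none of the 5 motifs in 180 bases. Of the 10 genes, 8 have a promoter entry, all but Htr3a and Htr5b.

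The channel genes Htr3a and Htr3b lie side by side on the minus strand of chromosome 9 (Htr3a at chr9:48899213-48911099, Htr3b at chr9:48935008-48964990, each with 9 exons). Both had the higher mean in the Trpv1 libraries, but neither passed; their log2 fold changes are −1.46 and −0.76. Htr3a stood at 16.8, 28.7, 17.3 and 4.17 CPM in the Sst libraries and at 25.9, 60.4, 37.9 and 57.5 CPM in the Trpv1 libraries. Sst replicate 2 lay above Trpv1 replicate 1, so the groups overlapped. The means were 16.8 ± 10.0 and 45.4 ± 16.4 CPM (SE of the log2 fold change 0.47, 95% interval −2.42 to −0.50, edgeR adjusted p = 0.063). Without Sst replicate 2 the difference passed (−1.82, edgeR adjusted p = 0.045). Htr3b stood at 3.71 to 9.48 CPM in the Sst libraries and 3.45 to 16.1 in the Trpv1 libraries (95% interval −2.13 to 0.62, SE 0.664, edgeR adjusted p = 0.579). Per kilobase of exon, Htr3a was higher than Htr3b in each of the 8 libraries, by 1.24- to 5.41-fold in the Sst libraries and by 4.07- to 20.2-fold in the Trpv1 libraries.

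Htr2a, the Gq-coupled receptor, did not pass. It stood at 6.53 to 19.3 CPM in the Sst libraries and 7.0 to 28.9 CPM in the Trpv1 libraries, which overlapped (log2 fold change −0.54 with SE 0.566, 95% interval −1.71 to 0.63, edgeR adjusted p = 0.652). The interval allows a difference in either direction.

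The Htr5 genes were low. Htr5a stood at 7.47, 0.218, 3.06 and 7.07 CPM in the Sst libraries and at 23.0, 12.0, 11.3 and 6.79 CPM in the Trpv1 libraries. Trpv1 replicate 4 lay within the Sst range, and the log2 fold change was −1.55 (95% interval −2.98 to −0.13, SE 0.689, edgeR adjusted p = 0.198, unadjusted p = 0.0337). Htr5b held 4 to 62 counts in the Sst libraries and 4 to 98 in the Trpv1 libraries (log2 fold change −0.72 with 95% interval −2.65 to 1.21, edgeR adjusted p = 0.73), and without Trpv1 replicate 4, which held the 98, the sign turned (0.69, edgeR adjusted p = 0.778).

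Htr7, the Gs-coupled receptor linked to serotonergic itch in mice, was the 1 gene of the 10 that did not pass the filter. Sst libraries held 30, 30, 150 and 0 counts, and Trpv1 libraries 0, 0, 0 and 6. Most Htr7 counts thus came from Sst replicate 3, and Sst replicate 4 held 0. With no filter the fitted log2 fold change was 4.82 (SE 1.62, edgeR adjusted p = 0.0809 over 21959 genes). Without Sst replicate 4, the Sst library at 0, Htr7 passed the filter and was called higher (5.22, edgeR adjusted p = 0.0364). It was tested but not called in the 4 fits that leave out a Trpv1 library (adjusted p from 0.126 to 0.194). The other serotonin receptor genes in the table, Htr2b, Htr2c, Htr4 and Htr6, held at most 41 counts in any library, and none of the 4 passed the filter.

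Levels of different genes were compared per kilobase of exon (CPM per kb). In the Sst libraries Htr1f (68.4 ± 26.9), Htr1a (32.9 ± 9.12) and Htr1d (21.3 ± 5.64) led, followed by Htr3a (8.04 ± 4.81). The ranges of Htr1f and Htr1a, and of Htr1a and Htr1d, overlapped, though each order held within all 4 libraries, and Htr1d lay clear of Htr3a. The next 5 genes, from Htr3b at 2.38 to Htr5a at 0.83, overlapped their neighbours, and Htr1b was last (0.102), overlapping Htr5a. In the Trpv1 libraries Htr1f (28.8 ± 8.43), Htr3a (21.8 ± 7.88) and Htr1a (16.4 ± 2.31) led and overlapped. Htr1f lay above Htr3a, and Htr3a above Htr1a, in 3 of the 4 libraries. In Trpv1 replicate 2 Htr3a (29.0) and Htr1a (19.0) stood above Htr1f (17.8 CPM per kb). Then came, after a gap, Htr3b, Htr2a, Htr1b, Htr5a and Htr5b at 3.88 to 1.88 CPM per kb, and after another gap Htr7 and Htr1d. Measured against the 18210 and 18139 genes with counts in each population, Htr1f stood at percentile 98.3 in the Sst and 95 in the Trpv1 libraries. Htr3a stood at 82.1 and 93.1, and Htr1d at 93 and 1.29.

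The Htr1 genes took the larger share of receptor transcripts in both populations. The summed level of the 10 genes was 108, 143, 120 and 184 CPM per kb in the Sst libraries and 70.5, 77.0, 81.7 and 95.6 in the Trpv1 libraries. The 4 Htr1 genes took 83.2% to 96.4% of it in the Sst libraries (87.5% ± 6.05, SD, n = 4) and 52.6% to 67.2% in the Trpv1 libraries (59.6% ± 6.71). The channel pair Htr3a and Htr3b took 1.97% to 12.4% (8.07% ± 4.42) and 21.8% to 39.5% (31.2% ± 7.99). For neither family did the shares of the populations overlap; the shares were not tested. The shares within a library depend on each other, so a higher Htr1 level by itself lowers the share of the channel pair. As levels scaled to library size rather than shares, the Htr1 sum was 123 ± 38.2 against 48.1 ± 5.66 CPM per kb. The channel pair stood at 10.4 ± 5.76 against 25.7 ± 8.42. The Htr1 sums did not overlap between the populations. Those of the channel pair did, with Sst replicate 2 at 17.7 and Trpv1 replicate 1 at 15.3 CPM per kb.

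**Figure D2:**
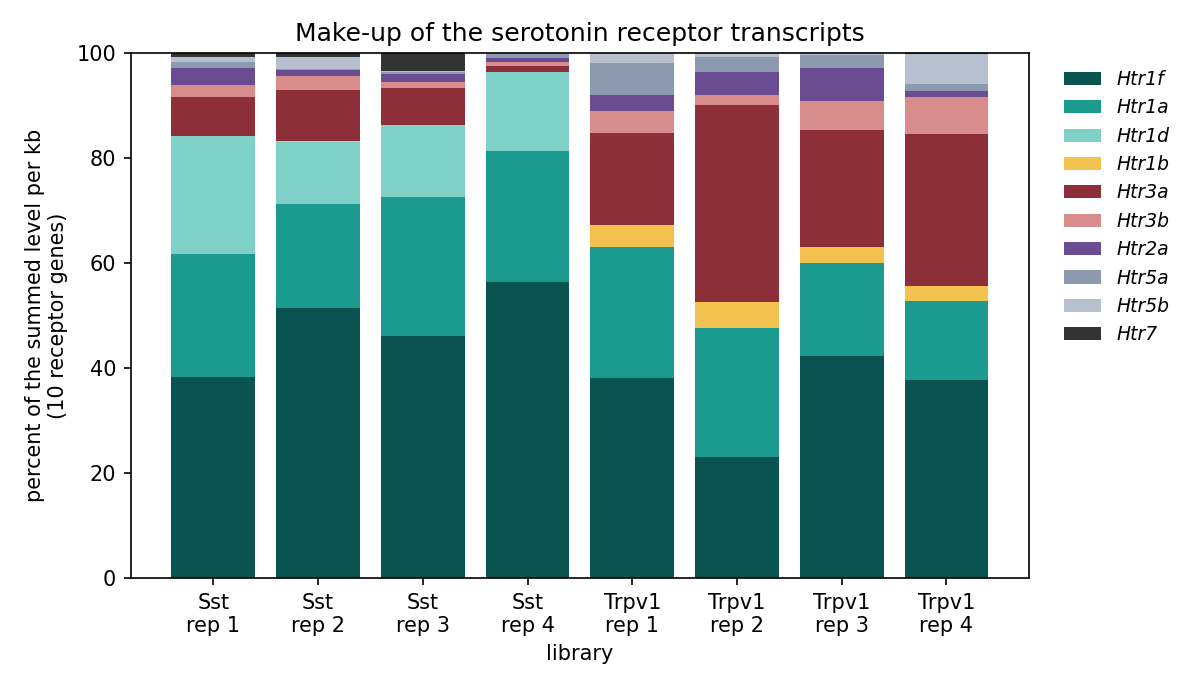
Share of each receptor gene in the summed level per kb of the 10 genes, as percent, with 1 stacked bar per library. The Htr1 genes fill 83.2% to 96.4% of each Sst bar, and Htr3a and Htr3b together 21.8% to 39.5% of each Trpv1 bar.

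The genes with the most similar patterns were found by Pearson correlation of log2 CPM over the 8 libraries among 6957 genes. The 8 points share their libraries and the 2 group means, and the values are a description. For Htr1a they were Jak1, Sorcs1 and Il31ra (r = 0.971 to 0.975). Jak1 is a kinase and Il31ra a receptor of itch cytokine signalling. Htr1b was most like Gpr155, Adcyap1 and Chrnb4 (0.993, 0.980 and 0.980), of which Adcyap1 encodes the peptide PACAP and Chrnb4 a nicotinic receptor subunit. Htr1d was most like Atp2b2, a plasma membrane calcium pump, Cnst and Sbk1 (0.973 to 0.985), and Htr1f most like Tollip, Tmem45b and Kirrel3os (0.980, 0.968 and 0.966). Kirrel3os is by its name an opposite-strand gene of Kirrel3. Whether the exons of this pair overlap was not checked, and the strand setting of the counting is not stated. Of the genes not called, Htr3a was most like Nxpe3, Nrg3 and Gid8 (0.993, 0.952 and 0.944). Htr3b had Dclre1c, Dctn6 and Atpif1 (0.972 to 0.948), Htr5a had Tppp, Tmeff1 and Noa1 (0.946 to 0.932) and Htr5b had Perp, Shank3 and Znrf1 (0.945 to 0.927).

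Downstream of the receptors, adenylyl cyclases are the enzymes that make cyclic AMP, and inhibitory G proteins restrain some of them. Of 9 listed, 8 were tested, with 1 higher and 1 lower in the Sst libraries (3.04% and 3.31% of all genes) and a median log2 fold change of 0.01. Adcy1, a calcium-stimulated cyclase, stood at 68.3 ± 32.9 against 7.87 ± 5.58 CPM (log2 fold change 3.07, SE 0.510, edgeR adjusted p = 0.000354). Adcy5, a cyclase inhibited by Gi, stood at 3.36 ± 3.60 against 48.7 ± 13.6 CPM (−3.83, SE 0.595, edgeR adjusted p = 0.000139). Neither gene's groups overlapped. The value of Adcy5 was −4.63 without Sst replicate 3, and both calls were lost in the 4 libraries nearly free of Gh and Prl (Adcy1 3.25, edgeR adjusted p = 0.232, and Adcy5 −3.73, adjusted p = 0.124). Both passed under the other 18 settings.

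The remaining 5 lists hold serotonin handling, Gi/Go alpha subunits, GIRK potassium channels, Gs and Gq subunits with phospholipase C beta, and receptor partners. Of their 37 genes 23 were tested, and edgeR called 0, with 4 at an unadjusted p under 0.05. With 6.35% called over all genes, a count of 0 among 23 lies near the background. DESeq2 and limma voom called 1 each, Plcb1 and Gnao1, both lower. Log2 fold changes ran from −1.36 to 0.64, with a median of −0.16. Gnao1, the main Go alpha subunit, stood at 1458 ± 301 and 2129 ± 374 CPM (−0.55, edgeR adjusted p = 0.0533). It lay at the threshold, and was called lower under 6 of 19 other settings, among them without Sst replicate 4 (−0.70, edgeR adjusted p = 0.00899) and with another scaling of library sizes (−0.56, adjusted p = 0.0452). Gnal, the Golf alpha subunit, stood at 1668 ± 367 and 1499 ± 152 CPM (0.15, adjusted p = 0.655). Maoa, which degrades serotonin, stood at 39.9 ± 16.3 and 28 ± 19.2 CPM (0.50, edgeR adjusted p = 0.613). Kcnj3, a GIRK subunit, stood at 26.8 ± 14 and 34.7 ± 16.2 CPM (−0.37, edgeR adjusted p = 0.712), and the arrestin gene Arrb1 at 111 ± 33.8 and 153 ± 47.4 CPM (−0.46, adjusted p = 0.367). The genes for serotonin uptake, Slc6a4, and for aromatic amino acid decarboxylation, Ddc, held 0 counts in every library. Tph2, a serotonin synthesis enzyme named here after its values were seen, held 286, 75, 2 and 0 counts in the Trpv1 libraries and 5, 1, 33 and 0 in the Sst libraries.

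**Figure D3:**
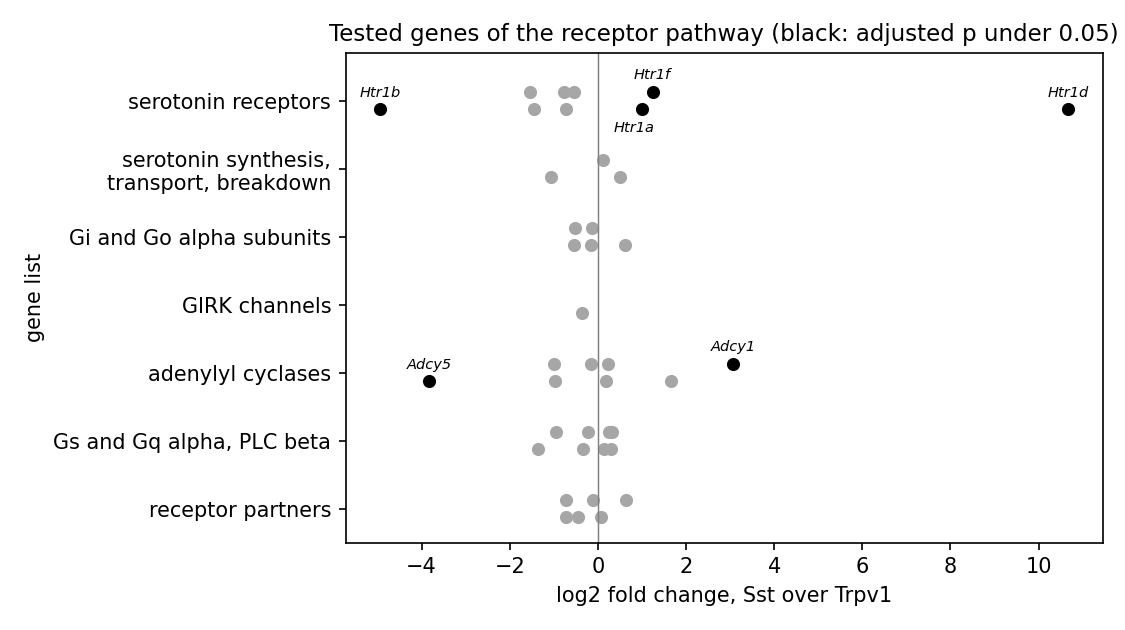
Log2 fold change, Sst over Trpv1, of each tested gene, with 1 row per list and black for an adjusted p under 0.05. The top row holds the serotonin receptors and the rows below it the 6 lists of the receptor pathway. The receptor row runs from −4.94 to 10.67, with 3 genes called higher and 1 lower. In the pathway lists Adcy1 at 3.07 and Adcy5 at −3.83 are the 2 called genes. The pathway lists other than the adenylyl cyclases lie between −1.36 and 0.64.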

How the data were processed

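Per the labels, RNA of each pool was isolated with PicoPure columns, amplified as cDNA (Ovation RNA-seq, V2) and turned into Nextera XT libraries. The authors deposited raw counts per gene symbol. Per the submitters' processing notes, bcl2fastq 2.17, Trimmomatic 0.33 and featureCounts were used on GRCm38. Aligner, annotation and strand use: not given in the sources used here.

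Counts were scaled by TMM, filtered with filterByExpr (minimum count 10) and tested with edgeR 4.0.16 in R 4.3.3 (quasi-likelihood F test, robust, group only, two-sided), leaving 11828 genes. CPM are TMM-scaled; log2 CPM used a prior count of 2. Levels per kb used merged exon lengths of GENCODE M21. The biological coefficient of variation was 69.1%. Alternatives used DESeq2 1.42.0 and limma 3.58.1, among others. Labels name independent samples, and no pair of libraries in a group agreed within counting noise (chi-square per degree of freedom 40 to 99.9). On counts simulated with the dispersions of this comparison (11297 genes), 6 of 100 2-fold and 54 of 100 4-fold changes were recovered, with 2 false among 62 calls. No other genes were changed, and the changed genes were drawn from the more abundant ones. The recovery in the data, where a larger share of genes was called, can therefore differ.

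The members and gene lists were chosen with earlier results of these data known. Named genes are the 10 members, the 4 other receptor genes, called members of each pathway list or its most abundant one, and the 3 genes most like each tested member, among genes averaging at least 3 on the log2 CPM scale and leaving out predicted genes and pseudogenes. The genes most like Htr2a are not reported here. Markers named come from the marker lists.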

Additional observations from a re-analysis of the deposited data

Results flagged for a closer look

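Htr1d in Trpv1 replicate 3 stood at 0.127 CPM, which is 1 count, while the other 3 Trpv1 libraries were at 0. Htr7 in Trpv1 replicate 4 stood at 0.637 CPM, which is 6 counts, with the other 3 Trpv1 libraries again at 0. Each was picked out as the 1 library apart from the other 3 of its group. With 3 libraries at 0 any count meets that rule, and the Htr1d value lies under the floor of 3 counts in its library (0.381 CPM). In all, 20 gene and group combinations were tested. The nominal rate of the rule, about 1 in 20, does not hold for groups with 3 libraries at 0.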

How the results depend on the processing

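The test called 751 genes, and the cause of the changes below was not tested. It called 435 with a term for Xist, 305 in the 6 Xist-positive libraries, 52 in the 4 nearly free of Gh and Prl, 493 with edgeR's older dispersion method (added after seeing the data), and 452 to 747 with 1 library left out (452 without Sst replicate 3, 487 without Trpv1 replicate 3, 500 without Sst replicate 1). Of the receptor genes 3 were higher. That fell to 1 with limma voom, with the Xist term, in the Xist-positive libraries and in those nearly free of Gh and Prl, and was 2 to 3 with 1 library left out. Without Sst replicate 4 the 2 were Htr1d and Htr7. The 1 lower gene became 0 in the libraries nearly free of Gh and Prl (edgeR; 3 at an unadjusted p under 0.05), where the lone Trpv1 library is assumed to vary like the others, and 1 to 2 with 1 library left out. The sign of Htr2a turned to 0.77 in those libraries, and that of Htr5b to 0.69 without Trpv1 replicate 4 (−1.86 to 0.69 with 1 library left out). For the pathway genes, whose alternatives were added after seeing the data, Gnal turned to −0.01 without Sst replicate 4 (−0.01 to 0.23 with 1 library left out) and Kcnj3 to 0.04 in the libraries nearly free of Gh and Prl.

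Per the labels each picking session held 1 sample of each genotype, without saying that the replicate number marks the session. The numbers showed no pairing: the correlation of deviations between same-numbered libraries was −0.0296 to 0.0316. With the replicate block the test called 572 genes, and among the receptor genes 2 were higher and 1 lower, with Htr1a at 0.98 (edgeR adjusted p = 0.069). Of 40 levels per length recomputed, 17 moved by more than 1 SD, all as TPM, which is a different unit. The longest transcript as gene length kept the order of genes, and TPM swapped Htr1b and Htr2a in the Trpv1 libraries. Low counts limit the precision for Htr5b, Htr7 and the 4 untested receptor genes.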
